A study of Mus musculus with 8 samples.

Results

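The NF-kB transcription factors and the inhibitors that hold them in check were examined as a set of 10 genes: Nfkb1, Nfkb2, Rela and Relb (factors), Nfkbia, Nfkbib, Nfkbie and Nfkbiz (IkB proteins), and Tnfaip3 and Tnip1 (the ubiquitin-editing protein A20 and its binding partner). The members were every probe set whose array annotation gave exactly 1 gene symbol, that symbol being one of the 10. The search returned 19 probe sets of 9 genes, of 18193 genes with such a probe set on the array, and all 19 were bright enough to enter the tests. Nfkb1 was not analysed here. The cells were subcutaneous preadipocytes, stromal cells that can mature into adipocytes, taken from C57BL/6 newborns at day 2. All samples carried Dicer lox/lox, that is, floxed alleles of the ribonuclease that cuts microRNA precursors, and all were infected with an adenovirus (750 MOI, with polybrene at 4 µg/mL). In 4 Dicer knockout samples the virus was Ad5CMVCre-eGFP, which encodes Cre recombinase and GFP, and in 4 control samples it was Ad5CMVeGFP, which encodes GFP alone. Both groups thus carry a virus and a fluorescent protein, and no sample received Cre without floxed Dicer, so Cre and the loss of Dicer cannot be told apart. RNA was harvested 4 days after infection and hybridised to 1 Affymetrix array per sample. The labels number the biological replicates 1 to 4 in each group without saying whether a number is an animal, a litter or a culture, so the spread behind every p-value is that among these 8 samples and may be technical.

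NF-kB factors are dimers of Rel-homology proteins that wait in the cytoplasm, bound by IkB proteins. Signals from cytokine receptors, Toll-like receptors and cytoplasmic sensors of viral nucleic acid activate IkB kinase, the IkB protein is degraded, and the dimer enters the nucleus and binds kappa-B sites. Among the genes then transcribed are those for its own inhibitors and for some of its own subunits, so that messenger RNA levels of Nfkbia and Tnfaip3 are commonly read as a record of recent NF-kB activity. Stromal cells of adipose tissue use this pathway when they secrete chemokines.

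The promoter windows of the members are shown first, because several of these genes are textbook targets of the factors that others of them encode. RefSeq windows (GRCm38.p6, 250 bases before to 50 after an annotated start) matched 7 of the 10 genes, with 10 windows in all: Nfkb2 (3 windows), Rela, Nfkbia, Nfkbib, Nfkbie, Tnfaip3 (2 windows) and Tnip1. Each was searched on both strands for the 10-base kappa-B consensus GGGRNWYYCC (R is A or G, W is A or T, Y is C or T, N is any base). The consensus occurred in 7 of the 10 windows, belonging to 5 of the 7 genes, whereas 4.51% of all 32841 windows and 5.14% of all 27018 genes with a window held it. Rela, Nfkbib and 1 of the Tnfaip3 windows held none. In the 4 windows below, capitals mark the consensus matches. They are given 5′ to 3′ on the strand of the gene.
Nfkbia, chr12:55492598-55492897, minus strand: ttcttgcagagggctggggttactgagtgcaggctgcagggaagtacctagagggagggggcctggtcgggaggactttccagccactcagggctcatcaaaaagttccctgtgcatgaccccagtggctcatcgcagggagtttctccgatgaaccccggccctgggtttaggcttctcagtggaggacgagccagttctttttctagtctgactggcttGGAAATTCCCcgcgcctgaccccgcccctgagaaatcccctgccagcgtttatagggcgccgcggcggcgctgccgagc
Nfkb2, chr19:46304487-46304786, plus strand: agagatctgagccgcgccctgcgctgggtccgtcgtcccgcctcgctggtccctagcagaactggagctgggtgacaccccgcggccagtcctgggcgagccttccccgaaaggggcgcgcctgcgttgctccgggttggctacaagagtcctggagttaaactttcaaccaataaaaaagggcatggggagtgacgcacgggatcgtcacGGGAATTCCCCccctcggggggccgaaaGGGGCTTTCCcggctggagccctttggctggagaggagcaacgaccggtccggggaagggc
Tnfaip3, chr10:19015361-19015660, minus strand: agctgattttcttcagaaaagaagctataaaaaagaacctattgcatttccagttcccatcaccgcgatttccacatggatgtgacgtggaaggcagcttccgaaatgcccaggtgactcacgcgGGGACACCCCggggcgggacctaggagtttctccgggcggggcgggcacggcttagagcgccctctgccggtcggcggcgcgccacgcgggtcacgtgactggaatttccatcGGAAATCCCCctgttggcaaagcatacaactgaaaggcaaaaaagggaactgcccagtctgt
Tnip1, chr11:54962891-54963190, minus strand: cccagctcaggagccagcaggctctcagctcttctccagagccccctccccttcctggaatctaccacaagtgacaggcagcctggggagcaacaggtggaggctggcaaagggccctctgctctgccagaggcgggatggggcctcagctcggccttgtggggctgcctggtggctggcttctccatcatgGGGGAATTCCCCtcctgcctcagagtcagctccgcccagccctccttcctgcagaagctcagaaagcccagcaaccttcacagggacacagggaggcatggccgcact
The Nfkbia match reads GGGAATTTCC on the opposite strand. The stretch in Tnip1 is a palindrome that holds 4 overlapping matches, 2 on each strand, and begins 58 bases before the start. Nfkbie, not printed, holds GGGGGATTCC at 106 bases before its start. The other 2 Nfkb2 windows share a GGGACTTTCC, which lies in the overlap of these windows. It begins 10 bases after the start of the first and 225 bases before that of the second. The first of these windows also holds GGGACATTCC on the other strand, at 236 bases before its start. A match is a description of the letters and not evidence of binding in these cells.

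**Figure D1:**
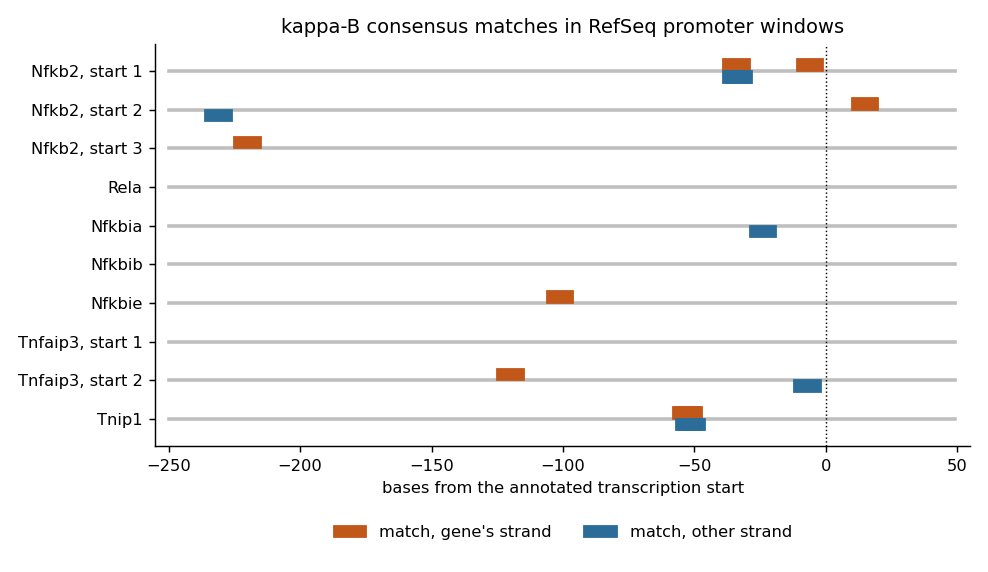
Positions of kappa-B consensus matches in the 10 RefSeq promoter windows of the members, in bases from the annotated transcription start (x axis). Grey lines are the windows, and boxes above and below a line are matches on the gene's strand and on the other strand; 5 of the 7 genes have at least 1 match, and Rela, Nfkbib and 1 of the 2 Tnfaip3 windows have none.

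The targeted gene gave no check of the labels. Its messenger RNA, Dicer1, is read by 2 probe sets, and their place relative to the floxed part is not stated. The brighter read 1110.1 to 1404 on knockout arrays and 1141 to 2114 on control arrays, the dimmer 488 to 754 on knockout and 391 to 1045 on control arrays, and the log2 differences of -0.15 (SE 0.20) and -0.26 (SE 0.27) did not pass. Knockout therefore stands for the label. The arrays carried the markers of the cell type in their labels. All 12 preadipocyte and stromal markers with a probe set were bright enough to be tested. Col1a2 and Col3a1, which encode fibrillar collagens, read at least 106121.6 and 97572 on every array, and Dlk1, a preadipocyte surface protein, read 15604 to 60140.3 on knockout and 26167 to 72944 on control arrays. Dlk1 was lower on the knockout array in 4 of 4 pairs, at a log2 difference of -0.72, and was called in the paired fit (adjusted p by limma = 0.0436) but not in the unpaired one (0.999) nor without pair 2, 3 or 4 (0.176 to 0.191). The stromal list as a whole had 5 of 12 markers above 0 and a median of -0.06. In the paired fit 0 were called higher and 1 lower, where 0.0754% of all genes were called. Of the leukocyte markers, Ptprc read 8.5 to 138 and Itgam 5.3 to 16.4, while the brightest, Cd74 and Cd68, read 1221 to 2319.5 and 724 to 1749.8. Of the endothelial markers, Vwf read 8.0 to 32 and Tie1 4.7 to 57.3, while the brightest, Kdr and Egfl7, read 811 to 1257 and 635 to 1053.5. The epithelial marker Epcam read 1088 to 2135. Egfl7 was lower on all knockout arrays than on all control arrays, at a log2 difference of -0.46 (SE 0.15), which did not pass. The endothelial list as a whole did not follow it, with 4 of 5 tested markers above 0 and a median of 0.05. Both epithelial markers tested were above 0, with a median of 0.25, and 0 were called in either list. The value added before taking logarithms was 73.1, the 20th percentile of all signals. The summed signal of 15 macrophage and leukocyte markers, of which 10 were bright enough to be tested, was 7485 to 7853 on knockout arrays and 6917 to 8885 on control arrays. That of 9 endothelial markers was 2938 to 3396 on knockout and 2796 to 4014 on control arrays, and that of 6 epithelial markers 2235 to 2969 on knockout and 1699 to 2641 on control arrays. For 6 adipocyte markers, of which 3 were bright enough to be tested, the sum was 3673 to 8016 on knockout and 3320 to 5969.5 on control arrays. The brightest of these, Fabp4, read 1877 to 6206 on knockout and 2080 to 3941 on control arrays. It was higher on the knockout array in 3 of 4 pairs, at a log2 difference of 0.55 (SE 0.34), which did not pass. Of the 3 adipocyte markers tested, 2 were above 0, with a median of 0.28, and 0 were called. The part of these markers in the results below was not tested. The leukocyte sum was 6917 to 8885 on odd-numbered and 7424 to 8608 on even-numbered arrays. The adipocyte sum was 3320 to 7649 on odd-numbered and 5296 to 8016 on even-numbered arrays. Of the 3 adipocyte markers tested, 0 had a log2 difference, odd minus even, above 0 (all genes, 47%). Their median was -0.28, and 0 were called. In bulk samples, fewer cells of a type and less RNA per cell cannot be told apart. Median signals were 321.1 to 418.9.

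The factors themselves had nearly the same mean signal with and without Cre. Rela encodes p65, the main transactivating subunit of the canonical pathway. It read 8085, 7886.5, 7333 and 6982.5 on knockout arrays 1 to 4, against 8404, 8239.9, 7993 and 6151 on control arrays 1 to 4. The groups overlapped, and knockout array 4 and control array 4 gave the lowest value of each. The log2 difference, knockout minus control, was -0.02 with a 95% interval of -0.28 to 0.25 in the unpaired limma fit. Log2 differences are of signal + 73.1, and standard errors and intervals are those of the unpaired fit unless the paired one is named. Relb encodes the subunit of the alternative pathway that partners p52. It read 1879, 1286, 1609.6 and 1078 on knockout arrays 1 to 4, against 1849, 1384, 1610.2 and 1027 on control arrays 1 to 4. The 2 groups covered nearly the same range, and the log2 difference was -0.0033 (-0.46 to 0.45). Nfkb2 encodes p100, which is both the precursor of p52 and an inhibitor with ankyrin repeats. Its brighter probe set (1425902_a_at) read 2695, 2271, 1733 and 1978 on knockout arrays 1 to 4, against 3077, 2451, 1800.3 and 1566 on control arrays 1 to 4. Replicate 1 was highest in both groups, and the log2 difference was -0.0056 (-0.46 to 0.45). A second Nfkb2 probe set (1429128_x_at), of a kind that can share sequence with other transcripts, gave 0.21 (-0.18 to 0.60) and was above 0 in 4 of 4 same-numbered pairs.

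**Figure D2:**
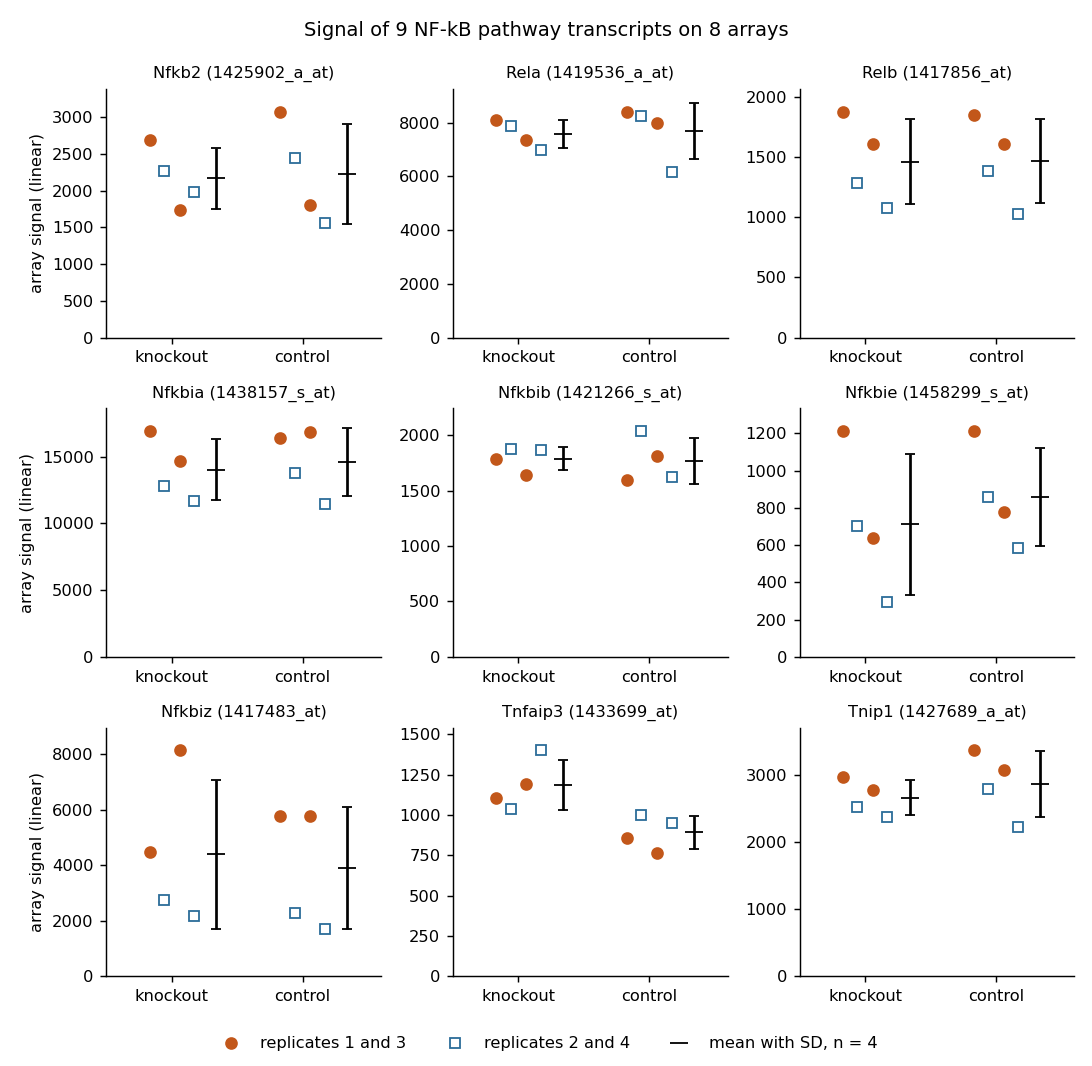
Linear array signal (y axis, from 0) of the brightest probe set of 9 genes on knockout arrays and control arrays. Filled circles are replicates 1 and 3, open squares replicates 2 and 4, and black marks the mean with SD over 4 arrays; the groups overlap for every gene but Tnfaip3, and for Nfkbiz, Relb and Nfkbia every circle lies above every square, over both groups.

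For the IkB inhibitors, too, knockout and control arrays overlapped. Nfkbia encodes IkB-alpha, the inhibitor that is degraded and resynthesised within each round of signalling. Its brightest probe set (1438157_s_at) read 16923, 12819, 14651 and 11695 on knockout arrays 1 to 4, against 16432, 13755, 16819.5 and 11420.2 on control arrays 1 to 4. The groups overlapped over nearly their whole range, with a log2 difference of -0.06 (-0.38 to 0.27). The gene has 5 probe sets, and their log2 differences lay between -0.06 and 0.04. In the paired fit, which takes the replicate number as a block, the interval for 1438157_s_at was -0.22 to 0.11, or 0.858-fold to 1.08-fold. Nfkbib encodes IkB-beta, a slower inhibitor. Its brighter probe set read 1782, 1872, 1640.1 and 1863 on knockout arrays 1 to 4, against 1594, 2037, 1809 and 1623 on control arrays 1 to 4, a log2 difference of 0.02 (-0.26 to 0.31). The dimmer one (1446718_at) had a mean of 369 ± 71.9 on knockout arrays and 288 ± 104 on control arrays (SD, n = 4 each), with an interval of -0.27 to 0.92 for the log2 difference. Nfkbie encodes IkB-epsilon, whose resynthesis follows that of IkB-alpha. Its brightest probe set (1458299_s_at) read 1213, 702, 638.5 and 293 on knockout arrays 1 to 4, against 1212, 856, 780.3 and 586 on control arrays 1 to 4. Replicate 1 was high and replicate 4 low in both groups, and knockout 4 was the lowest array. The log2 difference was -0.34 (-1.06 to 0.38) here and 0.0075 (-0.57 to 0.58) for the other probe set (1431843_a_at).

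Nfkbiz encodes IkB-zeta, a nuclear IkB protein induced early by inflammatory signals and needed for some secondary response genes. It was the most variable member, with an SD of 0.801 on the log2 scale over the 8 arrays. Its brightest probe set (1417483_at) read 4486, 2742, 8127 and 2181 on knockout arrays 1 to 4, against 5782, 2283, 5767 and 1702 on control arrays 1 to 4. Replicates 1 and 3 were high and replicates 2 and 4 low in both groups, so the groups overlapped. The log2 difference was 0.18 (-0.77 to 1.14), and the paired interval was -0.10 to 0.46. The other 2 probe sets had differences of -0.07 and -0.24, opposite in direction. Its intervals were wider than those of Rela and Nfkbia in both fits.

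Tnfaip3 was the only member whose knockout and control arrays did not overlap, and it did not pass the test. A20, its protein, removes activating ubiquitin chains from signalling intermediates upstream of IkB kinase. The probe set 1433699_at read 1107, 1039, 1195 and 1400 on knockout arrays 1 to 4, against 855, 997, 766 and 950.3 on control arrays 1 to 4. The lowest knockout value lay above the highest control value, and all 4 same-numbered pairs had a higher knockout array, with log2 differences of 0.35, 0.06, 0.60 and 0.53. The mean log2 difference was 0.38 (SE 0.16, adjusted p by limma = 0.999). In the paired fit the SE was 0.15 and the limma adjusted p 0.458. The exact two-sided permutation p was 0.0286, the smallest that 4 against 4 arrays can give, unadjusted for the members examined. A dimmer Tnfaip3 probe set (1450829_at) read 31.4, 389.9, 247 and 182 on knockout arrays 1 to 4, against 277, 453, 299 and 240.1 on control arrays 1 to 4. This one was lower on all 4 knockout arrays than on their same-numbered control arrays, with a log2 difference of -0.61 (SE 0.41, adjusted p by limma = 0.999), and knockout array 1 was far below the rest. The 2 probe sets of Tnfaip3 thus disagree in direction, and the mean of both was -0.115 on the log2 scale. Tnip1, which binds A20 and ubiquitin, read 2966, 2529.5, 2778 and 2376 on knockout arrays 1 to 4, against 3365, 2792, 3078 and 2226 on control arrays 1 to 4. Its groups overlapped, with a log2 difference of -0.09 (-0.41 to 0.23).

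Over the whole set, 0 of 19 probe sets passed the limma test at an adjusted p of 0.05 in the unpaired fit and 0 of 19 in the paired fit. Of all 27026 probe sets tested, 0.0037% passed in the unpaired and 0.0481% in the paired fit, so few calls were made anywhere. The adjusted p was 0.999 for every member probe set in the unpaired fit and 0.458 to 0.996 in the paired fit. At an unadjusted limma p under 0.05 there was 1 member probe set in each fit, Tnfaip3 1433699_at both times, where 3.77% and 9.14% of all probe sets reached this level. The knockout and control arrays did not overlap for 1 of 19, where 2.46% of all probe sets had no overlap. All 4 pairs pointed the same way for 3 of 19, where 16.9% of all did. The log2 difference was above 0 for 8 (51.3% of all probe sets) and below 0 for 11, with a median of -0.0037 over the member probe sets and 0.0057 over all tested ones. A p that misses the threshold does not show that the levels were equal, and the intervals in the plot of knockout minus control differences give the sizes that remain possible. In the paired fit the interval reached from 0.874-fold to 1.12-fold for Rela, from 0.834-fold to 1.19-fold for Relb, and from 0.933-fold to 1.38-fold for Nfkbiz. The unpaired intervals were wider, at 0.824-fold to 1.19-fold for Rela, 0.729-fold to 1.36-fold for Relb, and 0.586-fold to 2.2-fold for Nfkbiz.

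**Figure D3:**
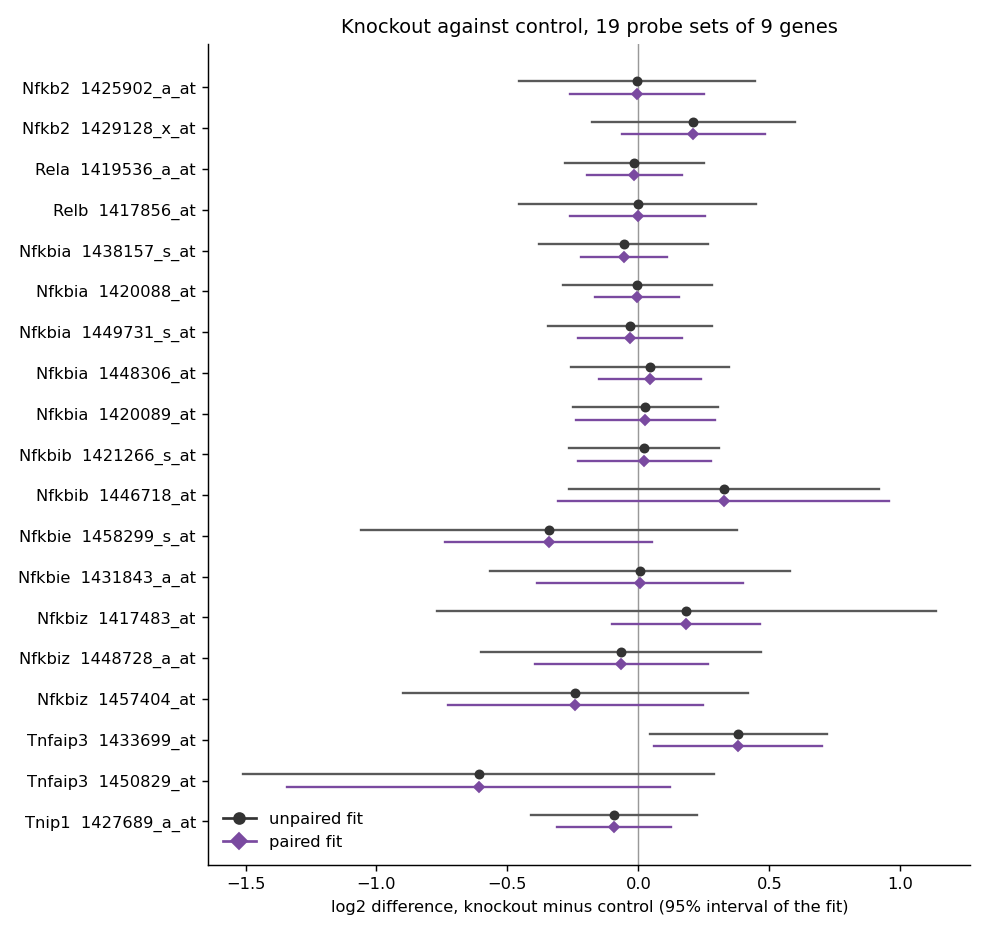
Log2 difference, knockout minus control (x axis), for the 19 probe sets, with 95% intervals from the unpaired fit (dark grey circles) and the paired fit (violet diamonds). The intervals include 0 for 18 of 19 probe sets in both fits, and that of Tnfaip3 1433699_at lies above 0 before any adjustment for the number of probe sets tested.

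For the brightest probe sets of Nfkbiz, Nfkbia and Relb the difference was larger between odd and even replicate numbers than between the groups. For both Tnfaip3 probe sets and the dimmer Nfkbib one it was larger between the groups. Odd-numbered arrays (replicates 1 and 3 of both groups) and even-numbered arrays (replicates 2 and 4 of both groups) were known to stand apart over many genes when the members were chosen, and the division crosses knockout and control evenly. The labels do not say what an odd or even number stands for. The division was taken up because it had been seen in these same data, so its p-values are not an independent test of it. Nfkbiz 1417483_at read 4486, 8127, 5782 and 5767 on odd-numbered arrays (knockout 1 and 3, control 1 and 3), against 2742, 2181, 2283 and 1702 on even-numbered ones (knockout 2 and 4, control 2 and 4). The lowest odd-numbered array lay above the highest even-numbered one, and the odd-numbered arrays were 2.63-fold higher (log2 difference, odd minus even, 1.40, SE 0.17, adjusted p by limma = 0.00357). The difference was 1.28 within the knockout arrays and 1.52 within the control arrays. Arrays that share a number deviate together, so treating all 8 as separate makes such p-values too small. On the means of same-numbered arrays (2 odd and 2 even numbers) Nfkbiz passed too (adjusted p by limma = 0.0395). Of all probe sets, 0.137% passed there. The call of Nfkbiz was lost without both arrays numbered 4 (log2 difference 1.22, adjusted p by limma = 0.0597) and within the knockout arrays alone (0.362). The other 2 Nfkbiz probe sets did not pass, but neither overlapped between odd and even numbers, with log2 differences of 0.62 and 0.72.

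Nfkbia and Relb differed in the same direction by smaller amounts. Nfkbia 1438157_s_at read 16923, 14651, 16432 and 16819.5 on odd-numbered arrays (knockout 1 and 3, control 1 and 3), against 12819, 11695, 13755 and 11420.2 on even-numbered ones (knockout 2 and 4, control 2 and 4). All odd-numbered arrays lay above all even-numbered ones, a log2 difference of 0.38 (SE 0.09, adjusted p by limma = 0.0495). This call sat at the threshold. It was lost on the means of same-numbered arrays (0.255) and when any 1 of the 8 arrays was left out, where the adjusted p was 0.0559 or above. The sign was shared by the other 4 Nfkbia probe sets, of which 3 had no overlap either and 1420089_at differed by 0.02. Relb read 1879, 1609.6, 1849 and 1610.2 on odd-numbered arrays (knockout 1 and 3, control 1 and 3), against 1286, 1078, 1384 and 1027 on even-numbered ones (knockout 2 and 4, control 2 and 4). The 2 kinds of array did not overlap, with a log2 difference of 0.52 (SE 0.14, adjusted p by limma = 0.0675), which does not pass. Nfkbie 1458299_s_at and Tnip1 had log2 differences of 0.63 (SE 0.28) and 0.29 (SE 0.11), with overlap. Rela and Nfkb2 1425902_a_at gave 0.13 (SE 0.11) and 0.14 (SE 0.20). The second Nfkb2 probe set, 1429128_x_at, gave a larger 0.41 (SE 0.13, adjusted p by limma = 0.114), with overlap, which does not pass. Nfkbib 1421266_s_at and Tnfaip3 1433699_at were on the other side of 0, at -0.11 (SE 0.12) and -0.16 (SE 0.15). Nfkbib and Tnfaip3 overlapped between odd and even numbers for both of their probe sets.

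Counted over the set, 2 of 19 probe sets passed between odd and even numbers over all 8 arrays, both higher on odd-numbered arrays, where 2.42% of all probe sets passed as higher. On the means of same-numbered arrays 1 of 19 passed. At an unadjusted limma p under 0.05 there were 11 of 19, where 19.7% of all probe sets reached this level, and 9 of 19 on the means, where 13.4% did. The log2 difference was above 0 for 15 of 19 (48.7% of all probe sets) and for 7 of 9 genes (47% of all genes). The odd-numbered arrays lay above the even-numbered ones without overlap for 8 of 19 probe sets, which stand for the 3 genes Nfkbiz, Nfkbia and Relb, where 6.93% of all probe sets did, and 0 of 19 lay below without overlap. Probe sets of 1 gene measure the same RNA, so the 8 are not 8 separate observations. By gene the share was 3 of 9, where 5.5% of 13259 genes lay above without overlap, and 0 of 9 lay below, where 5.79% did. The median log2 difference was 0.29 over the 9 genes and -0.019 over all genes. Other features moved with the same division: the 5′ probe set of 18S ribosomal RNA read 5905.9 to 14007 on odd-numbered and 30584 to 43030 on even-numbered arrays, and the Gapdh 5′ control read 46484 to 52568 on odd-numbered and 57155 to 63196 on even-numbered arrays. The Gapdh 3′ control was apart too, at 46889 to 54087 on odd-numbered and 57093 to 60407 on even-numbered arrays. So was the middle probe set of 18S ribosomal RNA, at 4488 to 7281 and 8700 to 12977. The Actb 3′ control was just apart (97649 to 107580 and 107630 to 113990), while Actb 5′ overlapped (49400 to 59106 and 55826 to 61886). The 3′ probe set of 18S ribosomal RNA overlapped, at 3228 to 5520 on odd-numbered and 5433 to 8812 on even-numbered arrays. The ratio of 3′ to 5′ signal for Actb was 1.66 to 2.06 on odd-numbered and 1.78 to 1.93 on even-numbered arrays, with overlap. For Gapdh this ratio was 0.986 to 1.13 on odd-numbered and 0.956 to 0.999 on even-numbered arrays, also with overlap. Of the 12 stromal markers 5 had a log2 difference, odd minus even, above 0, with a median of -0.10. Among them 1 was called higher and 0 lower, where 1.78% and 0.98% of all genes were. The marker called was Pdgfrb, a receptor of fibroblasts and pericytes. It read 23238 to 28600 on odd-numbered and 10786 to 18678 on even-numbered arrays, a log2 difference of 0.87 (adjusted p by limma = 0.012). The call was lost on the means of same-numbered arrays (0.115), within knockout (0.365) or control arrays (0.191) alone, and without both arrays numbered 1 (0.0795) or 4 (0.0791). The part of these features in the result was not tested.

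**Figure D4:**
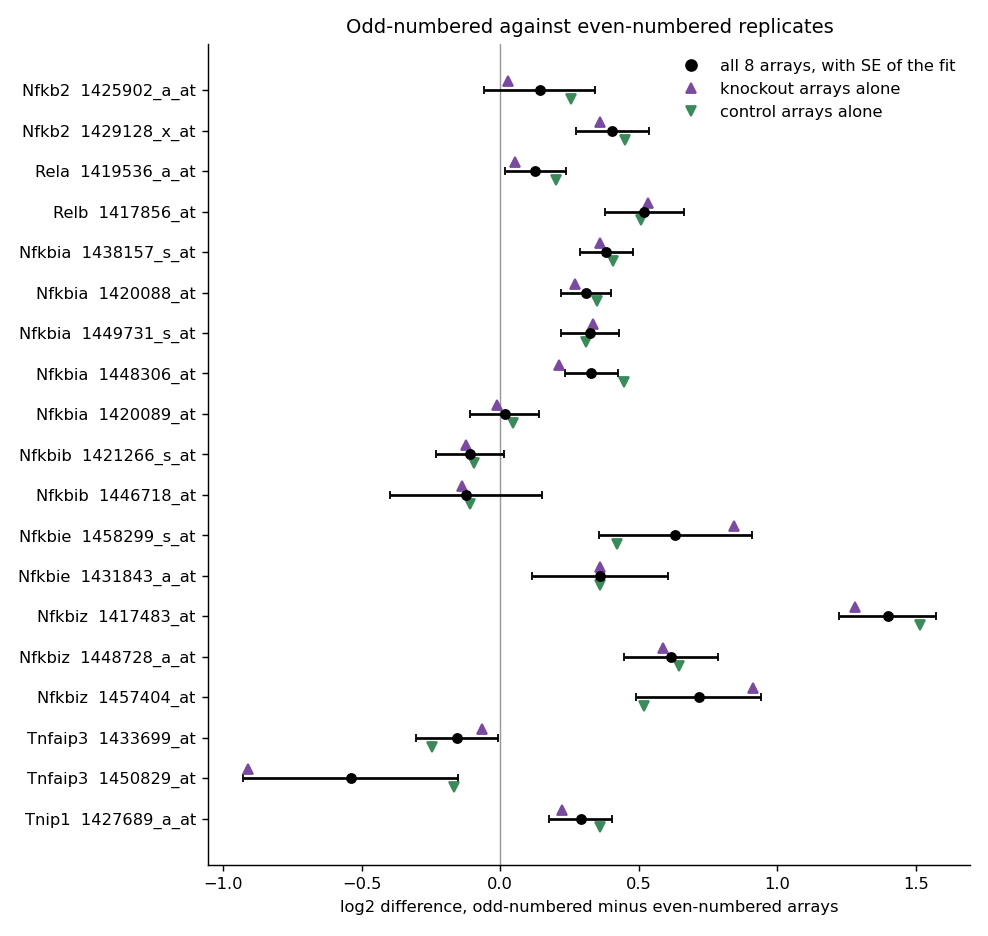
Log2 difference, odd-numbered minus even-numbered arrays (x axis), for the 19 probe sets. Black circles use all 8 arrays with the SE of the fit, and triangles give the same difference within knockout arrays (violet) and control arrays (green); Nfkbiz 1417483_at lies farthest to the right in both groups, at 1.40 over all arrays, and Tnfaip3 and Nfkbib lie below 0.

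The knockout effect itself did not differ detectably between odd-numbered and even-numbered pairs. For the brightest probe sets the log2 difference, knockout minus control, was -0.09 in odd-numbered and 0.06 in even-numbered pairs for Rela, -0.08 and -0.03 for Nfkbia, and 0.06 and 0.30 for Nfkbiz. Tnfaip3 1433699_at gave 0.47 in odd-numbered and 0.29 in even-numbered pairs, above 0 in both. Nfkbie 1458299_s_at gave -0.13 and -0.55, below 0 in both, and its overall difference was -0.02 without knockout 4 and -0.63 without knockout 1. The test of the difference between odd and even pairs passed for 0 of 19 probe sets, and 0 of 19 had an unadjusted limma p under 0.05, where 1.88% of all probe sets did and 0% passed after adjustment.

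Upstream of the factors, 31 receptors, adaptors and kinases of the pathway were tested, of 36 listed. Between knockout and control 0 passed in either direction in the unpaired and in the paired fit, and 21 had a log2 difference above 0, with a list median of 0.035 (all genes, -0.002). Ikbke, an IkB kinase relative of antiviral signalling, read 279, 487, 709.9 and 562 on knockout arrays 1 to 4, against 457, 107.5, 168 and 235.5 on control arrays 1 to 4. Control 1 lay within the range of the knockout arrays and the other controls below it, and the log2 difference was 0.95 (SE 0.35). Map3k14, the NIK kinase of the alternative pathway, read 926, 1152, 1198.5 and 1154 on knockout arrays 1 to 4, against 734, 819, 823 and 879.7 on control arrays 1 to 4. All knockout arrays lay above all control arrays, at a log2 difference of 0.41 (SE 0.15, paired adjusted p by limma = 0.389), which does not pass. Birc3, a ubiquitin ligase at the TNF receptor, differed by 0.23 (SE 0.22). On the other side, Irak1, a kinase of the interleukin-1 receptor, gave -0.17 (SE 0.11) and was lower on the knockout array in 4 of 4 pairs. Map3k8 and Tab1 gave -0.16 (SE 0.23) and -0.12 (SE 0.16). Between odd and even numbers 0 of 31 were higher and 1 was lower, Traf2, an adaptor of TNF receptors (log2 difference -0.56, adjusted p by limma = 0.0465), where 1.78% of all genes were called higher and 0.98% lower.

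Of 28 other family members and negative regulators, 25 were tested, and 0 passed between knockout and control in either direction or fit. The list median was 0.054, with 17 above 0. Rel, the c-Rel subunit best known from lymphoid cells, read 393, 586, 442 and 340.1 on knockout arrays 1 to 4, against 217, 254, 418 and 306 on control arrays 1 to 4. The groups overlapped, but the knockout array was higher in 4 of 4 pairs, at a log2 difference of 0.47 (SE 0.25). Sigirr, an inhibitory receptor, and Nkiras1, a small GTPase that binds IkB proteins, differed by 0.43 (SE 0.41) and 0.33 (SE 0.17). Commd1, which promotes turnover of p65, Bcl3, a nuclear IkB protein, and Nfkbil1 gave -0.26 (SE 0.13), -0.22 (SE 0.19) and -0.17 (SE 0.16). Between odd and even numbers 1 of 25 passed, Rnf11, a subunit of the A20 complex, which was lower on odd-numbered arrays (-0.53, adjusted p by limma = 0.0219), against the same 1.78% of all genes higher and 0.98% lower.

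Of 54 genes that NF-kB is known to switch on, 42 were tested. This list, too, was written with earlier results of these data known, so its counts are not a test of it. A log2 difference above 0 was seen for 28 of 42 (all genes, 49.6%), with a median of 0.093. In the unpaired fit 0 passed in either direction, and 5 had an unadjusted limma p under 0.05, where 3.93% of all genes did. In the paired fit 16 had one, where 10.3% of all genes did. After adjustment 2 were called higher in the paired fit and 0 lower, where 0.0754% of all genes were called in either direction. The 2 were the chemokines Ccl5 and Cxcl10. Ccl5 read 8287, 12326, 10808 and 23726.5 on knockout arrays 1 to 4, against 4952, 6708, 5677 and 7891 on control arrays 1 to 4. Cxcl10 read 14288, 16570.1, 14650.4 and 20441 on knockout arrays 1 to 4, against 10301, 11719, 9688 and 9985 on control arrays 1 to 4. The knockout array was higher in 4 of 4 pairs for both, at log2 differences of 1.03 (paired adjusted p by limma = 0.0165) and 0.65 (0.0498). The Cxcl10 call was lost without pair 2, 3 or 4 and that of Ccl5 without pair 2 or 3, where the adjusted p was 0.0861 to 0.178. Both genes also answer to interferon signalling. Ccnd1, the G1 cyclin D1, was higher in 4 of 4 pairs at 0.74 (SE 0.40, paired adjusted p by limma = 0.0885), which does not pass, and at 0.86 without pair 1 (0.0421), which does. Steap4, a metalloreductase, Mmp3, a matrix protease, and Tnfsf9, a TNF family ligand, gave -0.61 (SE 0.72), -0.40 (SE 0.49) and -0.37 (SE 0.17). Without 1 array or pair the difference of Steap4 lay between -1.27 and -0.15 and that of Mmp3 between -0.79 and -0.02. Mmp3 and Tnfsf9 were lower on the knockout array in 4 of 4 pairs. The plot of gene lists shows the spread of each list around its median.

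**Figure D5:**
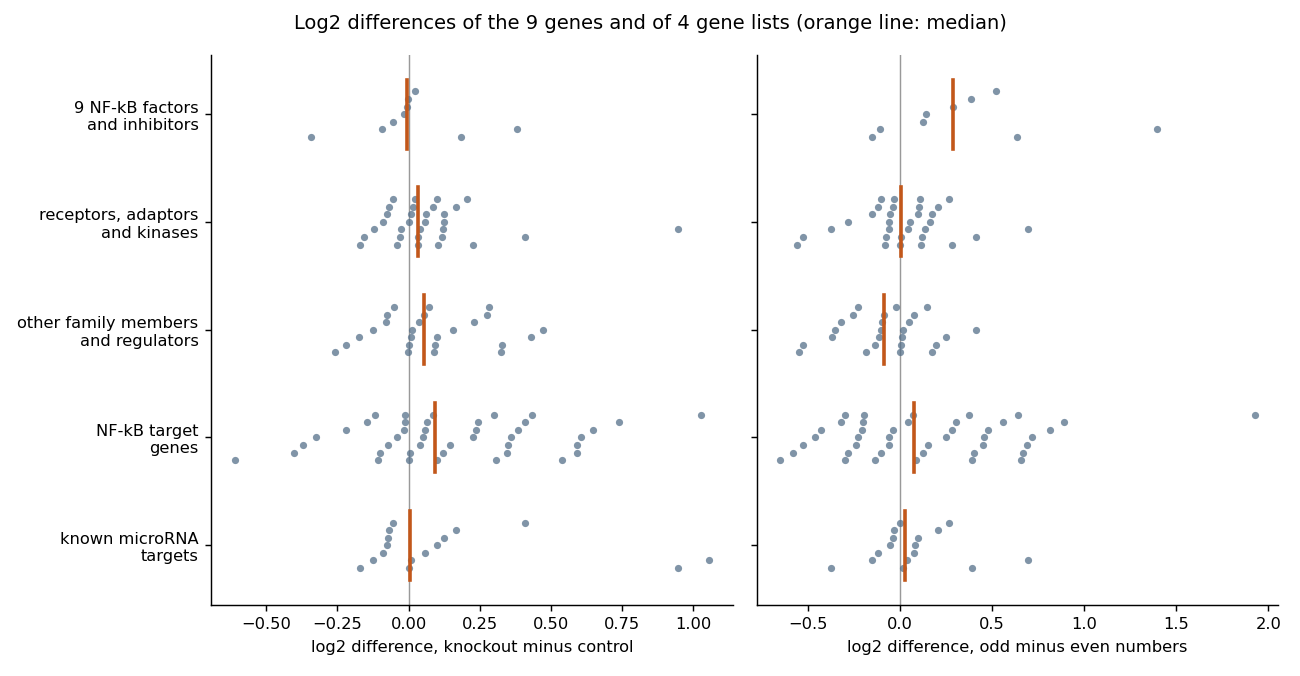
Log2 differences, knockout minus control (left) and odd minus even numbers (right), for the 9 members and the tested genes of 4 lists; each point is the brightest tested probe set of a gene and orange lines are medians. On the left the median of the members is near 0, and on the right it is 0.29 for the members and 0.076 for NF-kB target genes.

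Between odd and even numbers 3 of the 42 targets were higher and 0 lower, where 1.78% and 0.98% of all genes were, with a median of 0.076. Ptgs2, which encodes the inducible cyclooxygenase, read 3603, 2532, 4365 and 1271 on odd-numbered arrays (knockout 1 and 3, control 1 and 3), against 1129.5, 491, 782 and 399 on even-numbered ones (knockout 2 and 4, control 2 and 4). The 2 kinds of array did not overlap, at a log2 difference of 1.93 (SE 0.35, adjusted p by limma = 0.016). Ier3, an immediate-early survival gene, and Cd44, the hyaluronan receptor, were higher by 0.72 and 0.56 (adjusted p by limma = 0.0294 and 0.0392). These 3 calls, and those of Traf2 and Rnf11, were lost on the means of same-numbered arrays, where the adjusted p was 0.105 to 0.222. They were also lost without both arrays numbered 1 (0.084 to 0.193) or 4 (0.201 to 0.403). Leaving out 1 array ended the call of Ptgs2 without knockout 4 (0.0535) or control 4 (0.0644). It ended that of Ier3 without knockout 1, knockout 4, control 1 or control 4 (0.0781 to 0.0992), and that of Rnf11 without these or control 3 (0.0506 to 0.0887). The call of Cd44 was lost without knockout 1, 3 or 4 or control 1, 2 or 4 (0.0532 to 0.139), and that of Traf2 without any 1 of the 8 (0.0589 to 0.159). The genes called between odd and even numbers were named after their values were seen.

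Loss of Dicer stops the production of most microRNAs, and several messages of the NF-kB pathway are known microRNA targets. In immune cells miR-146a, itself induced by NF-kB, represses Irak1 and Traf6, and in human lymphoma cells miR-125b has been reported to target the A20 message. Their RefSeq mature sequences are shown because these pairings concern Tnfaip3 and a kinase and an adaptor upstream of the factors. Capitals mark the seed, bases 2 to 8.
mmu-miR-146a-5p: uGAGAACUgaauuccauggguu
mmu-miR-125b-5p: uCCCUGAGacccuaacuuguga
The arrays did not measure mature microRNAs. Of 18 genes listed as microRNA targets 16 were tested, and 0 passed in the unpaired fit. In the paired fit 1 was called higher and 0 lower, where 0.0754% of all genes were called, and 9 of 16 were above 0 (all genes, 49.6%) with a median of 0.0051. The list was written with earlier results of these data known, so this count is not a test of it. No pathway gene of the list was called. The gene called was Hmga2, a chromatin protein gene and let-7 target listed beside the pathway genes. It read 9995, 13626, 15125 and 12189 on knockout arrays 1 to 4, against 7129, 4629, 5969 and 6653 on control arrays 1 to 4. The groups did not overlap, at a log2 difference of 1.06 (SE 0.16, paired adjusted p by limma = 0.0336), with 4 of 4 pairs higher. Without pair 2, 3 or 4 it did not pass (0.0861 to 0.176). Irak1, the miR-146a target, read 4681, 5375, 5347 and 5668 on knockout arrays 1 to 4, against 5489, 5718, 6682 and 5853 on control arrays 1 to 4. Traf6 gave -0.05 (SE 0.18), named here for its known pairing and outside the rule for named genes. Ikbke and Map3k14, given above, had the next largest differences above 0. Peli1, an E3 ubiquitin ligase, and Tlr4, the endotoxin receptor, gave -0.13 (SE 0.11) and -0.09 (SE 0.17).

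The 2 most variable members were set beside all other genes for likeness, measured as the root mean square difference of log2 values, each centred on its mean over the 8 arrays. Nfkbiz was closest to Dusp1, an immediate-early phosphatase of MAP kinases, at 0.213 on the log2 scale, against the SD of 0.801 of Nfkbiz itself. Dusp1 read 9538, 11099.5, 9239 and 9445 on odd-numbered arrays (knockout 1 and 3, control 1 and 3), against 4788, 3691, 4284 and 3874 on even-numbered ones (knockout 2 and 4, control 2 and 4). The 2 kinds of array were apart, by 1.23 on the log2 scale, which describes a gene chosen for this profile. The next were Pcdhgc4, a clustered protocadherin, at 0.252 and Taf15, an RNA-binding protein, at 0.29. Their log2 differences, odd minus even, were 1.22 and 1.20. Nfkbie 1458299_s_at, with an SD of 0.582, was closest to Lhx9 (0.158), Ugcg (0.159) and Gm11772 (0.166). In these the highest values lay at number 1 and the lowest at number 4, as in Nfkbie. The likeness rests on 8 arrays and on the differences between replicate numbers that all these genes share.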

How the data were processed

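Expression was measured on 8 Affymetrix arrays, 4 Dicer knockout and 4 control. The authors deposited 1 intensity (MAS5 signal, linear scale) for each probe set and array. Per the submitters' processing notes they were made with GCOS 1.3 and MAS5. Their 2% trimmed mean is 1500 for all 8 arrays, a scaling found in the values. No further normalization is stated. MAS5 detection calls were not used here.

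Values were taken as log2(signal + 73.1), the added value being the 20th percentile of all signals, which shrinks fold changes at low signal. From 45101 probe sets the 64 controls were dropped, and tests ran on the upper 60% in mean log2 signal (27026). The annotation gave 1 symbol for 34945 probe sets, several for 932 and none for 9160. The brightest tested probe set stands for a gene. Comparisons used limma 3.58.1 in R 4.3.3 (lmFit, then eBayes with trend, two-sided tests, Benjamini-Hochberg adjustment over the 27026, threshold 0.05), and figures matplotlib 3.10.9 in Python 3.11.15. The scripts were tested on simulated data. Odd against even numbers had the group as a covariate. The number of arrays limits the precision.

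Deviations from group means correlated at 0.189 to 0.372 between same-numbered arrays of the 2 groups and at -0.347 to 0.149 between others. All 4 pairs lie above 0.1, but so do some differently numbered arrays that are both odd or both even, up to 0.149. A cut at 0.1 therefore does not separate pairing by number from the odd and even division. Replicate numbers count as pairs here on the labels' numbering, and the paired results rest on that.

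The members and gene lists were chosen with earlier results of these data known. The named genes are all members, the 3 largest differences in each direction of each list, and the 3 genes closest to each of the 2 most variable members. The alternatives tried were the pseudocount, the filter, quantile normalization, median centring, the trend, array weights, the replicate block, odd or even number as a block, the mean of a gene's probe sets, and leaving out arrays or pairs. Fits on the means of same-numbered arrays, with the number as a random block, within each group and without both arrays of a number were chosen after seeing the data. Dlk1, Egfl7 and Pdgfrb were named after their values were seen, and the alternatives for Dlk1 and Pdgfrb were added then.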

Additional observations from a re-analysis of the deposited data

How the results depend on the processing

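Between knockout and control, 0 member probe sets passed in the unpaired fit and under all alternatives run, the replicate block and every leave-out included. The block changed no call of a member. It put Ccl5 (1.03), Cxcl10 (0.647), Hmga2 (1.06) and the stromal marker Dlk1 (-0.725) past the threshold. The test of the difference between odd and even pairs gave 0 throughout. Between odd and even numbers the count of 2 member probe sets was 1 with a pseudocount of 1, no filter, median centring, no mean-variance trend, array weights, the means of same-numbered arrays, the number as a random block and control arrays alone. It was 0 with knockout arrays alone, and 0 to 1 when arrays were left out.

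Several knockout differences near 0 changed sign. Nfkb2 gave 0.000589 with quantile normalization and 0.102 as the mean of its probe sets, Nfkbib -0.00318 with median centring and -0.0281 with array weights, and Relb 0.0145 with array weights. As the mean of their probe sets, Nfkbiz gave -0.0416 and Tnfaip3 -0.115. When arrays were left out, the log2 difference, knockout minus control, was -0.152 to 0.162 for Nfkb2, -0.168 to 0.0264 for Nfkbia, -0.033 to 0.0913 for Nfkbib, -0.172 to 0.449 for Nfkbiz, -0.118 to 0.0304 for Rela, -0.155 to 0.126 for Relb, -0.0773 to 0.956 for Sigirr, -0.214 to 0.0281 for Tab1 and -0.18 to 0.023 for Tlr4. Without a change of sign it was -0.625 to -0.0216 for Nfkbie, -0.205 to -0.0118 for Tnip1 and 0.695 to 1.46 for Ikbke. The difference odd minus even was -0.2 to 0.484 for Nfkb2 and -0.021 to 0.275 for Rela, and 0.238 to 1.03 for Nfkbie. The cause of these shifts was not tested. Signal over background is not known for these probe sets, which limits what the dim ones show.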
